A study of Mus musculus with 12 samples.

Results

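A set of 37 genes that mark liver endothelial cells, or that these cells secrete to act on their neighbours, was followed in RNA sequencing of isolated mouse hepatocytes. The members were given as a list of symbols, and each matched exactly 1 of the 35709 gene rows of the deposited table through its Ensembl identifier. The rule for members uses no measured value, although the list was drawn up with earlier results of these data known. All 37 passed the filter on low values (a normalized count of at least 1 in at least 3 samples). The list held 10 junction and surface glycoproteins, 6 genes of the VEGF and angiopoietin receptor systems, 8 scavenger and endocytic receptors, 3 other sinusoidal genes, 5 angiocrine ligands and 5 transcription factors.

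The study compared Alb-Cre mice with Alb-R3 mice, in which Fgfr3, a receptor for fibroblast growth factors, was deleted from hepatocytes. Mice of both genotypes received either olive oil or carbon tetrachloride (CCl4), a hepatotoxin activated by pericentral hepatocytes, and the cells were profiled 48 h later. All were C57BL/6J males aged 8 to 10 weeks, and the CCl4 dose was 0.4 mg per g body weight in a single intraperitoneal injection. The 12 samples formed 4 groups of 3: Alb-Cre with oil, Alb-R3 with oil, Alb-Cre with CCl4 and Alb-R3 with CCl4. The control genotype is named for Cre under the albumin promoter, which is active in hepatocytes, and the series text places the deletion in hepatocytes, not in endothelial cells. The hepatocytes were obtained by Liberase perfusion, differential centrifugation and a Percoll gradient. Whether replicates came from separate animals is not stated in the labels, and the spread behind each p-value is that of these samples and may be technical.

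Sinusoidal endothelial cells line the capillaries of the liver. They have open pores instead of a tight barrier, clear waste molecules from the blood through scavenger receptors such as the stabilins, and release angiocrine signals. WNT2, WNT9B and R-spondin 3 are ligands that maintain the pericentral gene programme of hepatocytes, and BMP2 from endothelial cells induces hepcidin, the hormone of iron balance. In a preparation enriched for hepatocytes, transcripts of such genes can come from other cells that remain in the preparation. For a few members, such as Gata4, hepatocytes are themselves a known source. Which cells the transcripts came from in these samples was not tested.

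The samples held totals of 27200000 to 38800000 normalized counts. Hepatocyte markers took 7.68% to 14.8% of the total in each sample, while the 37 endothelial members together took 0.0149% to 0.0553%, so each preparation was hepatocyte-rich and the endothelial signal was a small remainder. Fgfr3 was read at 734.9, 887.6 and 988.1 normalized counts in Alb-Cre oil against 523.1, 650.5 and 1109 in Alb-R3 oil, so these groups overlapped and the library labelled Alb-R3 oil replicate 3 stood above every Alb-Cre oil sample (limma log2 fold change -0.26 ± 0.24 SE, adjusted p = 1). With CCl4 the Alb-Cre samples read 950.9, 705.7 and 753.0 against 477.7, 372.1 and 382.3 for Alb-R3, without overlap (limma log2 fold change -0.96 ± 0.24 SE, adjusted p = 0.252). A gene-level value can include transcript outside the deleted part, and the sources used here do not give the exons removed, so Fgfr3 does not settle the label of that library. The library labelled Alb-R3 CCl4 replicate 1 also stood apart, with 32.3% of its counts from mitochondrially encoded genes against 6.22% to 12.8% in the other 11 samples. Counts of members called by limma in comparisons that use either library are given with and without it.

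As a share of all counts, the members took 0.0281%, 0.0276% and 0.0349% in the 3 Alb-Cre oil samples and 0.0149%, 0.0150% and 0.0161% in the 3 Alb-R3 oil samples. After CCl4 the shares were 0.0461%, 0.0319% and 0.0528% in Alb-Cre. They were 0.0292%, 0.0512% and 0.0553% in Alb-R3, where the lowest was replicate 1. The Alb-R3 oil samples were thus the lowest of the 4 groups and did not overlap any other. The library labelled Alb-R3 oil replicate 3 was the highest of its group, at 0.0161%, and below every sample of the other groups. In these bulk samples fewer endothelial cells and less RNA per endothelial cell cannot be told apart.

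**Figure D1:**
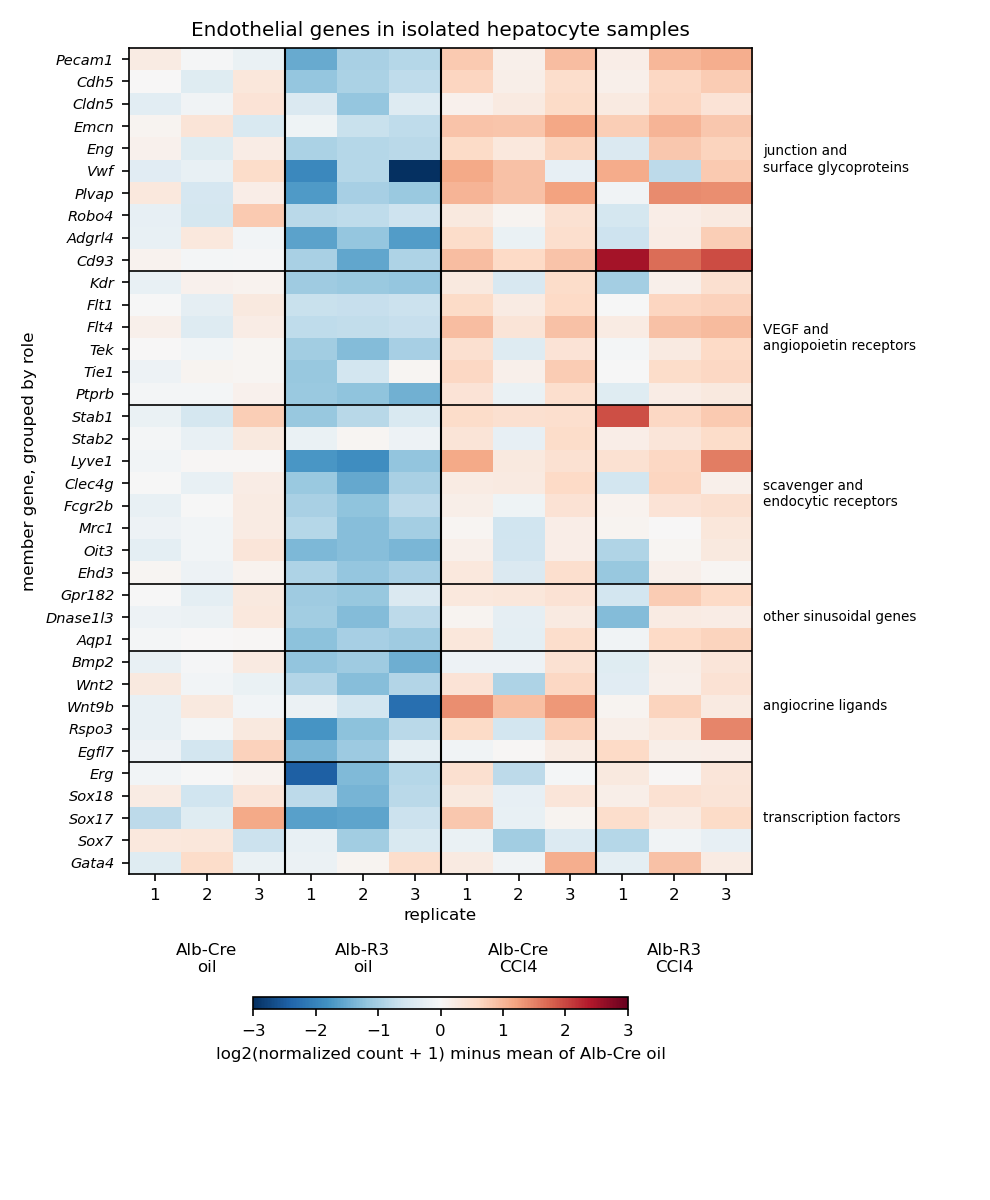
Each row is 1 of the 37 member genes and each column 1 sample; colour gives log2(normalized count + 1) minus the mean of the Alb-Cre oil samples, from -3 (blue) to 3 (red). The Alb-R3 oil columns are the bluest block, and the group mean was lowest there for 36 of 37 members.

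The level per transcript length was compared with the deposited FPKM (fragments per kilobase of transcript, scaled to depth) in Alb-Cre oil, the reference group. Clec4g, a sinusoidal C-type lectin, was the highest at 17.8 ± 2.65 FPKM (SD, n = 3). It was followed by Egfl7, a secreted endothelial matrix protein, at 12.9 ± 5.76, the water channel Aqp1 at 12.4 ± 0.48, the inhibitory Fc receptor Fcgr2b at 11.5 ± 1.87 and the nuclease Dnase1l3 at 11.5 ± 2.17 FPKM. Those 4 did not differ from one another beyond their spread. At the other end stood Cd93 at 0.233 ± 0.012, the clotting factor carrier Vwf at 0.078 ± 0.031 and Wnt9b at 0.024 ± 0.006 FPKM. Each of the 8 scavenger and endocytic genes read at a higher FPKM than Vwf, a marker of larger vessels. Vwf and Wnt9b were listed at 0 in the library labelled Alb-R3 oil replicate 3.

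The first comparison set the genotypes side by side without injury. After oil, most members read lower in the samples labelled Alb-R3, among which Fgfr3 itself was not called lower: the ratio of Alb-R3 to Alb-Cre group means had a median of 0.48 over the 37 genes, ranged from 0.207 (Vwf) to 1.08 (Gata4), and was below 0.5 for 22. For 28 of 37 members all 3 Alb-R3 samples lay below all 3 Alb-Cre samples, which happened for 5.63% of the 20244 genes tested, and for no member did they all lie above (5.66%). The median log2 difference of the members was -1.03, with 36 of 37 below 0, against 0.00 for all genes tested. In limma with Benjamini-Hochberg adjustment over all genes, however, 1 member fell, Ptprb, where 0.109% of all genes were called lower and 0.0988% higher. A further 30 members had an unadjusted p under 0.05 (31 in all), as did 1314 of all 20244 genes tested. Most of the members' single differences thus did not pass the adjusted threshold in this design.

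Ptprb encodes the vascular receptor phosphatase VE-PTP, which restrains TIE2 and VE-cadherin signalling (chr10:116275523-116389535, GRCm38, plus strand). Its normalized counts were 478.0, 480.5 and 547.1 in Alb-Cre oil. In Alb-R3 oil they were 231.0, 217.4 and 182.6, all below each Alb-Cre sample. limma gave a log2 fold change of -1.25 ± 0.22 (SE) and an adjusted p of 0.0415. The call was lost in 13 of 21 alternative analyses, 8 of which left out 1 sample: any of the 6 oil samples, Alb-Cre CCl4 replicate 1 or Alb-R3 CCl4 replicate 2 (adjusted p = 0.0592 to 0.152). Without Alb-R3 oil replicate 3 no member passed the threshold in limma, and the members' median log2 difference was -1.10. In that fit 29 members and 1211 of all 19925 genes had an unadjusted p under 0.05. Alb-R3 CCl4 replicate 1 is in neither of these groups but is in the joint fit, and with it left out (19818 genes tested) 12 members passed: Ptprb, Eng, Plvap, Adgrl4, Lyve1, Clec4g, Fcgr2b, Oit3, Ehd3, Dnase1l3, Aqp1 and Bmp2, all lower. Of all genes, 63 passed as lower and 40 as higher in that fit. Without Alb-Cre CCl4 replicate 2 the count of members was 3 (Ptprb, Mrc1 and Aqp1), where 23 of all 19952 genes were lower.

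Stellate and Kupffer cell markers were also lower, and markers of other cell types were not all so. Stellate cell and fibroblast markers, as a summed share of counts, ranged from 0.00696% to 0.00912% in Alb-Cre oil and from 0.00329% to 0.00402% in Alb-R3 oil, and their 14 genes had a median log2 difference of -1.14. Kupffer cell and macrophage markers ranged from 0.0047% to 0.00911% against 0.00304% to 0.00388%, with a median of -1.0 over 14 genes. No gene of either list passed the adjusted threshold in limma (3 stellate markers did without Alb-R3 CCl4 replicate 1). The summed share of cholangiocyte markers went the other way without overlap, from 0.000379% to 0.000498% in Alb-Cre oil and from 0.000515% to 0.000673% in Alb-R3 oil. As a list they did not, with a median log2 difference of 0.00 over the 7 of 9 genes tested. Each oil sample had 4 to 6 of the 9 genes at 0. Median log2 differences were -0.13 for monocyte and neutrophil, -0.43 for lymphocyte, 0.44 for platelet and 0.10 for erythroid markers. Hepatocyte markers had a median of -0.13 over 12 genes, and their shares overlapped between these groups. The part these cells had in the endothelial difference was not tested.

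**Figure D2:**
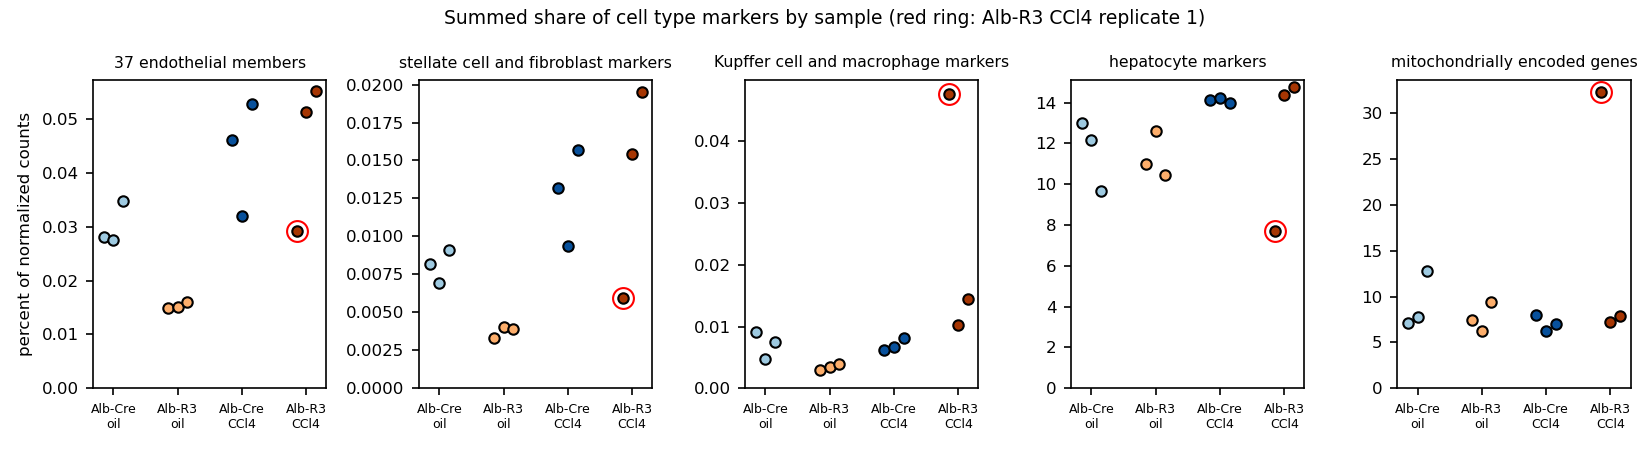
Each point is 1 sample; the vertical axis is the summed share of all normalized counts, in percent, for the 37 endothelial members, stellate, Kupffer and hepatocyte markers and mitochondrially encoded genes, by group. Alb-R3 oil is the lowest group for endothelial, stellate and Kupffer genes, and the ringed sample, Alb-R3 CCl4 replicate 1, holds 32.3% mitochondrial counts.

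The second comparison asked what 48 h of CCl4 injury did within each genotype. In Alb-R3 hepatocyte preparations 28 of 37 members rose and none fell in limma, where 10.9% of all genes rose and 6.92% fell. The median log2 fold change was 1.30, all 37 were above 0, and the median over all tested genes was 0.00. In 31 of 37 the 3 CCl4 samples lay above the 3 oil samples, against 18.1% of all genes, in none below (15.5%), and the ratio of group means ranged from 1.13 to 9.55 with a median of 2.52. In Alb-Cre preparations limma called none of the 37 (3.46% of all genes rose and 0.988% fell). An unadjusted p under 0.05 was found for 4 members and for 3458 of all 20244 genes. The median log2 fold change of the members in Alb-Cre was 0.28 against 0.02 for all genes. There 10 members did not overlap, all higher after CCl4, where 13.3% of all genes lay wholly higher and 10.4% wholly lower: Cd93, Clec4g, Emcn, Eng, Flt4, Gpr182, Lyve1, Plvap, Tie1 and Wnt9b. With Alb-R3 CCl4 replicate 1 left out of the joint limma fit, Plvap (1.04, adjusted p = 0.0162) and Flt4 (0.73, adjusted p = 0.0428) passed in Alb-Cre. Of all 19818 genes in that fit, 977 rose and 454 fell. The Alb-R3 oil samples serve both the CCl4 comparison in Alb-R3 and the oil comparison between genotypes, so a low oil value enters both results.

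By role, 9 of 10 junction and surface glycoproteins rose in Alb-R3 after CCl4 (median log2 fold change 1.53), as did 5 of 6 VEGF and angiopoietin pathway genes (1.20). Of the scavenger and endocytic receptors 6 of 8 rose (1.24), of the other sinusoidal genes 2 of 3 (1.15), of the angiocrine ligands 3 of 5 (1.29) and of the transcription factors 3 of 5 (1.34). The 9 members that did not pass were Robo4, Kdr, Stab2, Ehd3, Dnase1l3, Wnt2, Wnt9b, Sox7 and Gata4, at log2 fold changes of 0.13 (Gata4) to 1.34 (Wnt9b). Without Alb-R3 CCl4 replicate 1 the count was 29 and the median 1.52, where 1950 of all 19818 genes rose. Without Alb-R3 oil replicate 3 the count was 25 and the median 1.38, where 1708 of all 19925 genes rose. After quantile normalization the count was 15, where 1723 of all 20244 genes rose. Kupffer cell markers rose too, 14 of 14 with a median of 2.22, and 11 with a median of 1.42 without Alb-R3 CCl4 replicate 1. The Kupffer share of that library, 0.0477%, was the highest of all samples. Stellate cell and fibroblast markers rose in 11 of 14 (median 2.12), and in 14 without that library. The part of these cells in the members' rise was not tested.

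**Figure D3:**
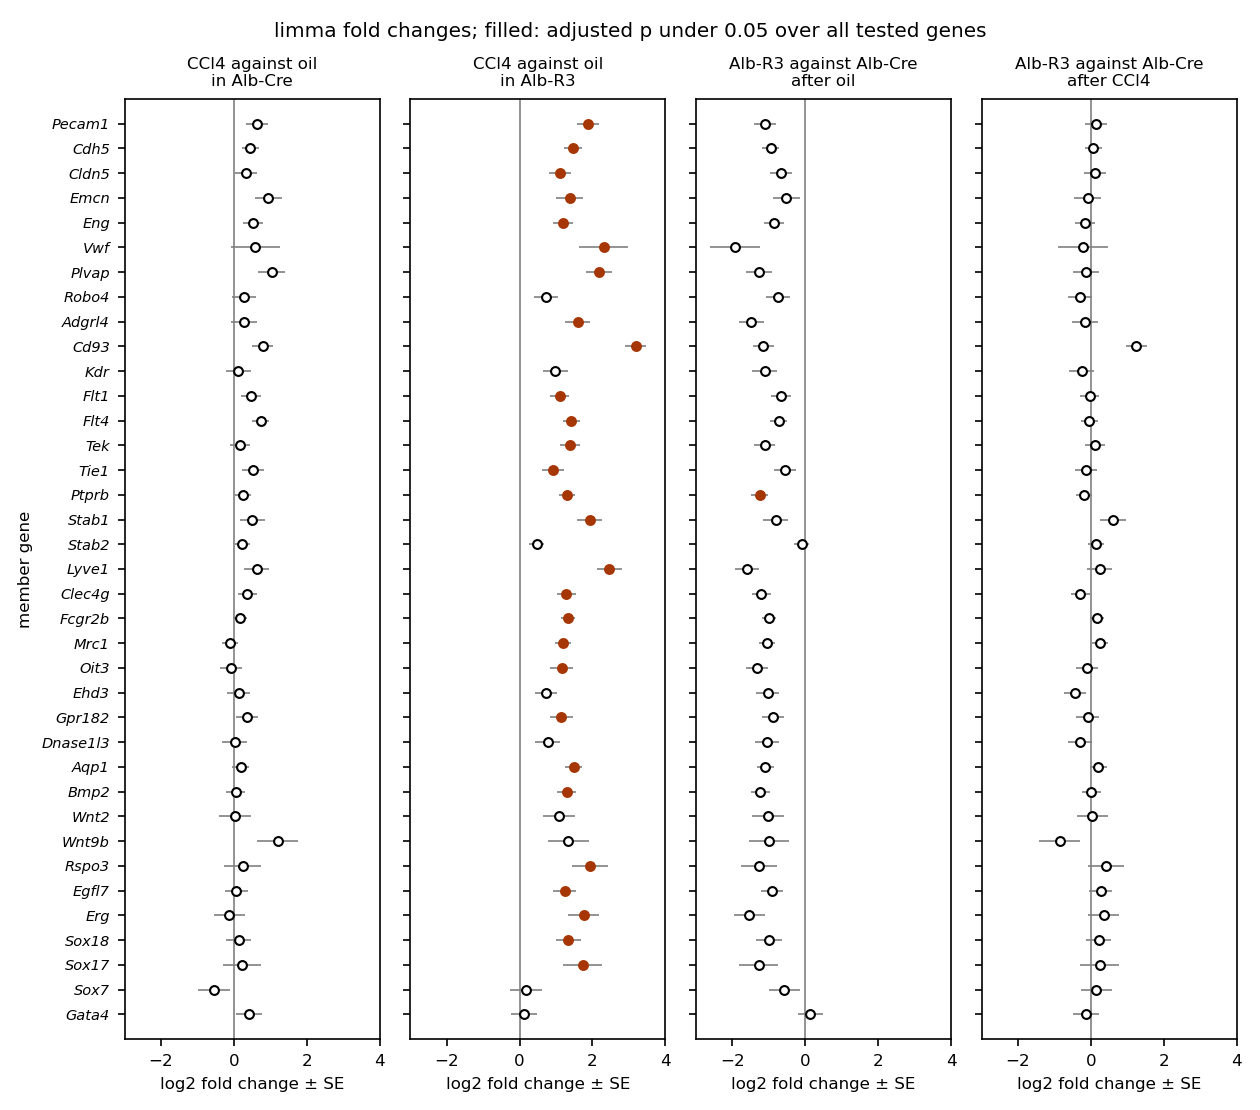
Log2 fold change with its SE (horizontal axis) for each of the 37 members (vertical axis) in the 4 comparisons, from limma; filled points passed an adjusted p of 0.05 over all tested genes. Filled points number 0, 28, 1 and 0 from left to right.

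Among the junction and surface genes, Cd93, a transmembrane glycoprotein of endothelial and myeloid cells that takes part in adhesion (chr2:148436640-148443563, minus strand), changed most. Its normalized counts were 58.55, 52.11 and 53.80 in Alb-Cre oil and 27.43, 18.06 and 28.46 in Alb-R3 oil. After CCl4 they were 105.4, 82.95 and 99.57 in Alb-Cre against 314.8, 175.9 and 215.2 in Alb-R3. The Alb-R3 CCl4 samples were the highest 3 of the 12, and they overlapped no other group. In limma Cd93 rose in Alb-R3 by 3.19 ± 0.28 on the log2 scale (adjusted p = 1.24e-05), and the Alb-Cre difference was 0.79 ± 0.28 (adjusted p = 0.158). Between genotypes after CCl4 the log2 difference was 1.25 ± 0.28 (adjusted p = 0.16), and without Alb-R3 CCl4 replicate 1 it was 1.02 (adjusted p = 0.376).

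The other members of this role moved in the same direction with smaller values. Plvap, which forms the diaphragms of fenestrae and caveolae, read 80.98, 133.7 and 121.8 in Alb-R3 oil and 248.6, 714.9 and 695.7 in Alb-R3 CCl4. All CCl4 samples lay above all oil samples, replicate 1 lowest among them, and the limma log2 fold change was 2.17 ± 0.36 (adjusted p = 0.00137). Pecam1, the adhesion molecule CD31, went from 42.79, 62.35 and 67.95 to 141.8, 248.4 and 265.0 (1.88 ± 0.30, adjusted p = 0.00105, limma). Cdh5, which encodes VE-cadherin of the endothelial junction, rose by 1.47 ± 0.24 on the log2 scale (adjusted p = 0.00113, limma), and Vwf by 2.31 ± 0.68 (adjusted p = 0.0325, limma), the latter on at most 16.59 normalized counts in any sample. The Vwf call was lost when Alb-R3 oil replicate 1 or 3, or Alb-R3 CCl4 replicate 1 or 3, was left out (adjusted p = 0.0846 to 0.121). Those of Cldn5 and Emcn were lost without Alb-R3 oil replicate 2 or Alb-R3 CCl4 replicate 2, and that of Emcn also without Alb-R3 oil replicate 3 (adjusted p = 0.0586 to 0.0958). Robo4, a stabiliser of vessels, had a log2 difference of 0.72 ± 0.33 and did not pass (adjusted p = 0.157, limma).

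In the VEGF and angiopoietin role, Ptprb was 387.1, 582.7 and 618.2 normalized counts in Alb-R3 CCl4, each above the 3 Alb-R3 oil samples, and rose by 1.30 ± 0.22 on the log2 scale (adjusted p = 0.00153, limma). In Alb-Cre CCl4 it read 668.4, 439.4 and 710.1, which overlapped Alb-Cre oil. Flt4 (VEGFR3), Tek (TIE2) and Flt1 (VEGFR1) rose in Alb-R3 by 1.42 ± 0.24, 1.39 ± 0.28 and 1.10 ± 0.27 on the log2 scale. Tie1, an orphan partner of TIE2, was just past the threshold (0.93 ± 0.30, adjusted p = 0.0496, limma), and its call was lost in 15 of 21 alternatives, 10 of which left out 1 sample (adjusted p = 0.0509 to 0.202): any Alb-Cre sample, Alb-R3 oil replicate 1 or 2, or Alb-R3 CCl4 replicate 2 or 3. Kdr (VEGFR2), the principal VEGF receptor, went from 186.0, 181.3 and 173.8 to 190.9, 435.1 and 547.4, where replicate 1 was close to the oil values. Its log2 difference was 0.98 ± 0.34 (adjusted p = 0.0646, limma) with all samples and 1.43 (adjusted p = 0.0024) without that replicate.

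**Figure D4:**
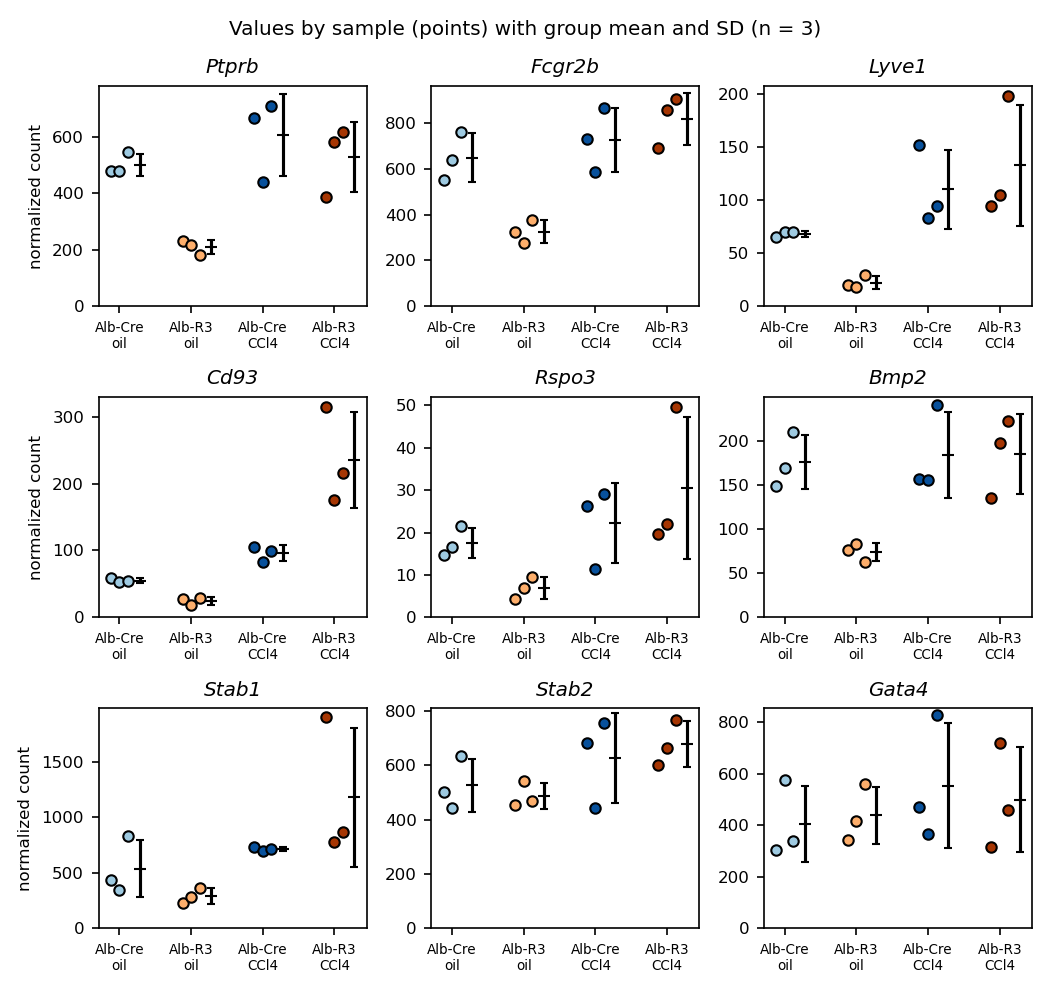
Normalized counts of 9 members by group: points are samples, and the bar beside them is the mean with its SD (n = 3). Ptprb, Fcgr2b, Lyve1, Cd93, Rspo3 and Bmp2 are lowest in Alb-R3 oil without overlap, while the Stab2 and Gata4 values of the genotypes overlap after oil and after CCl4.

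Scavenger and endocytic receptors are the class that distinguishes sinusoidal from most other endothelium. Lyve1, a hyaluronan receptor (chr7:110850607-110863239, minus strand), read 65.09, 70.00 and 70.41 in Alb-Cre oil against 19.70, 18.13 and 29.57 in Alb-R3 oil. The limma log2 difference was -1.60 ± 0.34 (adjusted p = 0.101). After CCl4 it read 152.6, 83.5 and 94.75 in Alb-Cre against 94.91, 105.5 and 198.8 in Alb-R3, and it rose within Alb-R3 by 2.47 ± 0.34 (adjusted p = 0.000357, limma). Fcgr2b, which clears small immune complexes, read 549.2, 637.2 and 760.6 in Alb-Cre oil against 325.0, 277.8 and 375.4 in Alb-R3 oil, and 690.9, 856.5 and 903.8 in Alb-R3 CCl4. Its fold changes were -0.99 ± 0.19 between genotypes after oil (adjusted p = 0.0703, limma) and 1.32 ± 0.19 with CCl4 in Alb-R3 (adjusted p = 0.000532, limma). Clec4g, the mannose receptor Mrc1 and Oit3 also rose in Alb-R3, by 1.29 ± 0.26, 1.19 ± 0.22 and 1.15 ± 0.31 on the log2 scale, and the endocytic recycling factor Ehd3 did not pass at 0.72 ± 0.31. The Oit3 call was lost without any 1 of the Alb-R3 oil samples, or without Alb-R3 CCl4 replicate 2 or 3 (adjusted p = 0.055 to 0.0795). Mrc1 is also carried by Kupffer cells, and their part in its values was not tested. In Alb-R3 CCl4 it read 370.4 in replicate 1, the sample of highest Kupffer share, and 351.6 and 439.2 in the others.

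The 2 stabilins, related scavenger receptors for hyaluronan and modified lipoproteins, were set side by side with no test of one against the other. Stab1 (chr14:31139013-31168641, minus strand) was 435.7, 346.1 and 830.6 in Alb-Cre oil and 226.5, 278.8 and 366.6 in Alb-R3 oil, which overlapped. It was 729.2, 695.3 and 711.5 in Alb-Cre CCl4 and 1902, 775.7 and 865.6 in Alb-R3 CCl4, where the highest was replicate 1. Stab1 rose in Alb-R3 by 1.92 ± 0.35 on the log2 scale (adjusted p = 0.00235, limma), and by 1.52 without that library (adjusted p = 0.00392). Macrophages also express Stab1, and the same library held the highest Kupffer share, but whether the 2 are linked was not tested. Stab2 (chr10:86841198-87008025, minus strand) read 500.8, 444.3 and 632.5 in Alb-Cre oil and 453.0, 540.6 and 467.1 in Alb-R3 oil, overlapping, with a log2 difference of -0.10 ± 0.21 (adjusted p = 1, limma). After CCl4 its values were 683.5, 441.5 and 757.2 in Alb-Cre against 601.5, 664.4 and 767.0 in Alb-R3, a log2 difference of 0.47 ± 0.21 in Alb-R3 (adjusted p = 0.144, limma). The counting may mix overlapping transcripts: Stab1 shares exon bases with Nt5dc2 on the opposite strand, and an antisense model overlaps Stab2, and the sources used here do not say whether reads were assigned by strand. The same holds for Eng with Fpgs, Egfl7 with Agpat2, Gpr182 with Zbtb39, and antisense models at Clec4g, Fcgr2b, Rspo3 and Sox17.

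Of the 3 other sinusoidal genes, Aqp1 read 1099, 1151 and 1177 in Alb-Cre oil and 485.9, 575.7 and 545.2 in Alb-R3 oil, then 1063, 1734 and 1814 in Alb-R3 CCl4. It rose with CCl4 in Alb-R3 by 1.48 ± 0.23 on the log2 scale (adjusted p = 0.000779, limma), as did the atypical chemokine receptor Gpr182 by 1.15 ± 0.31 (adjusted p = 0.0219, limma). The Gpr182 call was lost without Alb-R3 oil replicate 1 or 2, or Alb-R3 CCl4 replicate 2 or 3 (adjusted p = 0.0752 to 0.0849). Dnase1l3, which digests chromatin in circulation, read 510.4, 423.3 and 604.2 in Alb-R3 oil and 424.4, 1249 and 1234 in Alb-R3 CCl4. Its lowest CCl4 value was in replicate 1, and it did not pass (0.77 ± 0.34, adjusted p = 0.142, limma) unless that library was left out (1.29, adjusted p = 0.00106).

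The 5 members grouped as angiocrine ligands are secreted by endothelial cells, and Egfl7 is the matrix protein among them. Bmp2 read 149.1, 169.2 and 210.0 in Alb-Cre oil and 76.60, 82.73 and 62.68 in Alb-R3 oil, then 156.5, 155.6 and 241.0 in Alb-Cre CCl4 and 135.1, 197.8 and 222.8 in Alb-R3 CCl4. The Alb-R3 oil samples were the lowest 3 of the 12. Bmp2 rose in Alb-R3 by 1.29 ± 0.26 (adjusted p = 0.00451, limma), and the difference between genotypes after oil was -1.23 ± 0.26 (adjusted p = 0.099, limma).

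Rspo3 read 14.70, 16.53 and 21.48 in Alb-Cre oil against 4.377, 6.800 and 9.461 in Alb-R3 oil, and 19.60, 21.97 and 49.69 in Alb-R3 CCl4, where it rose by 1.92 ± 0.50 on the log2 scale (adjusted p = 0.0177, limma). Wnt2 read 35.70, 27.22 and 25.06 in Alb-Cre oil, 15.32, 11.33 and 15.37 in Alb-R3 oil and 22.70, 32.23 and 39.27 in Alb-R3 CCl4, a log2 difference of 1.09 ± 0.44 that did not pass (adjusted p = 0.106, limma). All 3 CCl4 samples lay above the 3 oil samples for both genes. Wnt9b was near the lower limit, at 3.150, 4.861 and 3.580 in Alb-Cre oil and 3.283, 2.267 and 0 in Alb-R3 oil. With CCl4 it read 11.67, 8.006 and 10.81 in Alb-Cre against 4.127, 6.592 and 4.809 in Alb-R3, the 1 member lower in Alb-R3 without overlap (5.86% of all genes), though not past the threshold (-0.86 ± 0.56, adjusted p = 0.765, limma). Egfl7 read 333.9, 254.7 and 599.1 in Alb-Cre oil and 143.3, 174.5 and 302.8 in Alb-R3 oil, which overlapped, then 565.3, 421.1 and 426.3 in Alb-R3 CCl4, a rise of 1.24 ± 0.31 (adjusted p = 0.0158, limma). The Rspo3 call was lost without Alb-R3 oil replicate 1 or Alb-R3 CCl4 replicate 3 (adjusted p = 0.0744 and 0.0718, in that order), and that of Egfl7 without Alb-R3 oil replicate 1 or 2 (0.0765 and 0.0599, in that order).

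Among the transcription factors Erg, an ETS family regulator of endothelial identity, read 49.35, 51.53 and 56.10 in Alb-Cre oil and 8.754, 20.40 and 28.38 in Alb-R3 oil, then 63.96, 53.47 and 67.32 in Alb-R3 CCl4. It rose in Alb-R3 by 1.77 ± 0.43 on the log2 scale (adjusted p = 0.0124, limma). Sox18 and Sox17, vascular SOX factors, rose by 1.34 ± 0.35 and 1.74 ± 0.53 (adjusted p = 0.0175 and 0.0389, limma), and their relative Sox7 did not pass (0.17 ± 0.43). Calls were lost for Erg without Alb-R3 oil replicate 1 (adjusted p = 0.0535) and for Sox18 without Alb-R3 oil replicate 2 (0.0731). That of Sox17 was lost without Alb-R3 oil replicate 1 or 2, Alb-Cre CCl4 replicate 3 or any 1 Alb-R3 CCl4 sample (0.0534 to 0.122). Gata4, a regulator of sinusoidal identity that hepatocytes also carry, read 303.4, 574.6 and 338.9 in Alb-Cre oil and 343.6, 414.8 and 560.6 in Alb-R3 oil. Its CCl4 values were 470.6, 364.9 and 827.0 in Alb-Cre against 316.7, 720.8 and 460.8 in Alb-R3, so the groups overlapped throughout. Its log2 difference after oil was 0.14 ± 0.35, the 1 member above 0 in that comparison.

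After CCl4 the order of the genotypes varied by member and with 1 library. The ratio of group means, Alb-R3 over Alb-Cre, had a median of 1.01 and ranged from 0.509 (Wnt9b) to 2.45 (Cd93). The log2 difference was above 0 for 19 of 37 members with a median of 0.01, and without Alb-R3 CCl4 replicate 1 for 32 with a median of 0.22. limma called none of the 37 (0.084% of all genes were called higher and 0.0889% lower). An unadjusted p under 0.05 was found for 1 member, Cd93, and for 1573 of all 20244 genes. Without that library limma again called no member, and 2 members and 1191 of all 19818 genes had an unadjusted p under 0.05. Cd93 and Stab1 were higher in Alb-R3 without overlap (6.16% of all genes). The difference between genotypes in the CCl4 response, tested directly in limma as an interaction, was called for no member and for no gene at all (0% in each direction). Its unadjusted p was under 0.05 for 19 members and 1516 of all genes. The members' median interaction was 1.06 on the log2 scale, 36 of 37 above 0, against -0.02 for all genes. Without Alb-R3 CCl4 replicate 1 the median was 1.26, no member and 3 of all genes were called, and 26 members had an unadjusted p under 0.05. Without Alb-R3 oil replicate 3 the median was 1.12, with no gene called and 20 members and 1526 of all 19925 genes at an unadjusted p under 0.05. The larger CCl4 response in Alb-R3 was therefore not shown to differ from that in Alb-Cre at the adjusted threshold. With array weights, which gave Alb-R3 CCl4 replicate 1 the lowest weight of the 12 samples, Cd93 and Aqp1 passed (2.18, adjusted p = 0.0258, and 1.40, adjusted p = 0.0421).

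To see which members varied apart from the rest, each was set against the mean log2 level of 8 pan-endothelial genes of the list (Pecam1, Cdh5, Tie1, Ptprb, Eng, Erg, Robo4 and Adgrl4, the member itself left out) in the same sample. This is a description of levels with no test, since the reference genes are themselves members. Stab2 lay 2.34 to 2.76 log2 units above that reference in Alb-R3 oil and 1.42 to 2.0 in the other 9 samples. Gata4 lay 2.27 to 2.60 above in Alb-R3 oil and 0.84 to 1.88 elsewhere. The counts of both overlapped between the oil groups, in which the reference differed. Lyve1 went the other way, from -2.17 to -1.60 in Alb-R3 oil against -1.42 to -0.37 in the other 9. Cd93 lay from -0.39 to 1.06 in Alb-R3 CCl4 against -2.18 to -0.98 elsewhere. Myeloid cells also carry Cd93, and their part in its values was not tested. These 4 separations were picked after every member was looked at in every group, and no rate over all genes was computed for comparison. Whether so many would arise by chance was not tested. The direction of all 4 was the same with pseudocounts of 0.1 and 5, which reuse the same samples and are not independent evidence.

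**Figure D5:**
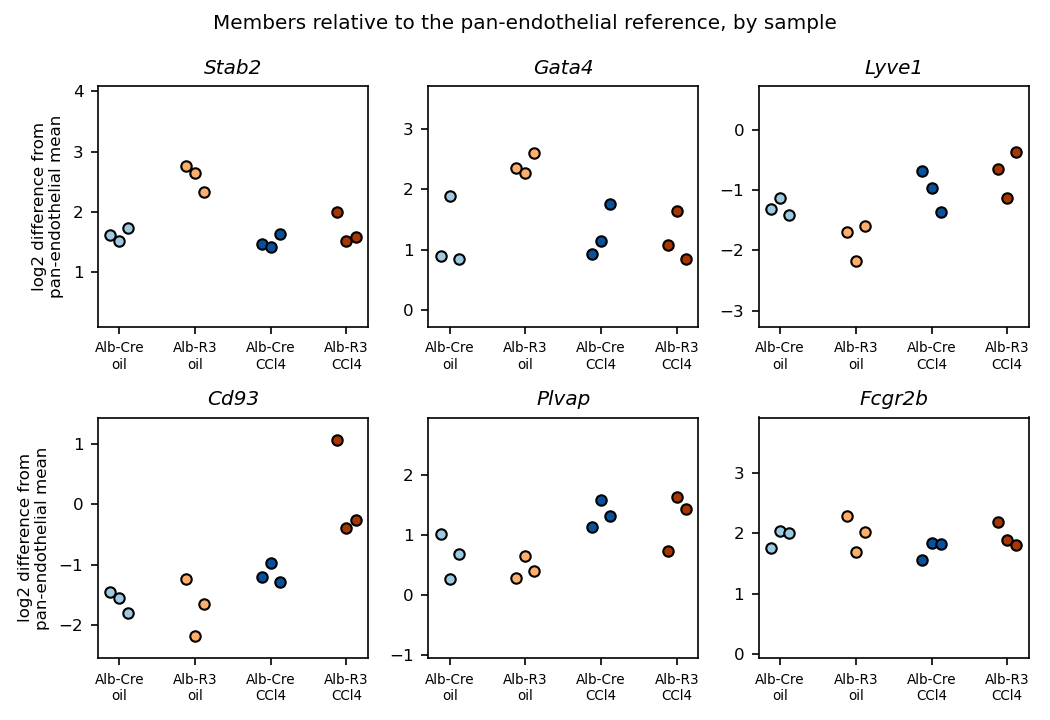
Log2(normalized count + 1) of 6 members minus the mean of the pan-endothelial reference genes in the same sample (vertical axis, log2 units), by group; each point is 1 sample. Stab2 and Gata4 in Alb-R3 oil stand above, and Lyve1 below, all other samples, and Cd93 stands apart in Alb-R3 CCl4.

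The start regions of members were read from RefSeq promoters (GRCm38.p6), which held 25 promoters of 21 of the 37 genes. They are shown because many members moved together, and Erg, itself a member, belongs to the ETS family, whose sites have the core letters AGGAAG or CGGAAG. The first of these stood on either strand within the 250 bases before the start in 14 of 25 member promoters (56.0%) and in 29.5% of all 32851 promoters. The second stood in 2 of 25 (8.0%) and 13.6% of all, the SOX letters ACAAT in 6 (24.0%) and 27.7%, the GATA letters AGATAA in 1 (4.0%) and 9.99%, and the AP-1 letters TGACTCA in 0 and 4.46%. The letters are a description, not a site of binding. The 2 stabilins are printed as a related pair, chosen after their values were seen, and neither was called between genotypes after oil. Clec4g is printed as the member of highest FPKM. Eng, an endothelial co-receptor for TGF-beta and BMP9 that rose by 1.20 ± 0.27 in Alb-R3, is printed as one with matches on both strands. Capitals mark AGGAAG or CGGAAG, or the same letters read on the other strand, and overlapping matches run together in Clec4g. Sequences run 5′ to 3′ on the gene's strand at chr14:31168642-31168891 (Stab1), chr10:87008026-87008192 (Stab2), chr8:3720652-3720901 (Clec4g) and chr2:32646345-32646594 (Eng). For Stab2 the 167 bases before the GENCODE start are printed, which lies 83 bases upstream of the RefSeq start; they hold no match, and the 250 bases searched hold 1.
Stab1: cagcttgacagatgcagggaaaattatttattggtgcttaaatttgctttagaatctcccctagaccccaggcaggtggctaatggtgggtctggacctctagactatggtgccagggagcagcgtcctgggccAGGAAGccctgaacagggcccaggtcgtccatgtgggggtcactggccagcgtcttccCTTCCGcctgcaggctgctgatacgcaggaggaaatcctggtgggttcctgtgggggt
Stab2: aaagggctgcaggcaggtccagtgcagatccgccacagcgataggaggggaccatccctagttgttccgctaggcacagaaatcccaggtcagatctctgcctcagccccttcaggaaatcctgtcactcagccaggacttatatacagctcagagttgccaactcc
Clec4g: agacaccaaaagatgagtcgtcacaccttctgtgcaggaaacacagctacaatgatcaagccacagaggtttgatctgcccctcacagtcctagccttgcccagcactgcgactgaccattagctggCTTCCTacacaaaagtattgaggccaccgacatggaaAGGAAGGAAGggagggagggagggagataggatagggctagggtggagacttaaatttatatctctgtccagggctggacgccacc
Eng: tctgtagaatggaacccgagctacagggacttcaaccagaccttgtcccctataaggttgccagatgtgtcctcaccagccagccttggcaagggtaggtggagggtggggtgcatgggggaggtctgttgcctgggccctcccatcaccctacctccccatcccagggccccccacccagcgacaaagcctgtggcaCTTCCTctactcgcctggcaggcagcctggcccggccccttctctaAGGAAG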

How the data were processed

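Gene expression in 12 isolated hepatocyte samples (4 groups of 3) was measured by RNA sequencing. The authors deposited one table of 35709 genes with a normalized signal per gene and an FPKM per gene for each sample. Per the submitters' processing notes, kallisto 0.44.0, edgeR and the build GRCm38.p6 were used; the edgeR version was not stated there. The deposited normalized signal is called normalized count here. Of its low nonzero values, 71.4% to 75.7% fell on whole multiples of one step fitted per sample (tolerance 0.02 of a step). It was therefore treated as an estimated count rescaled by sample and not as a raw count. The fitted steps put the estimated depth at 28000000 to 39600000 reads. The deposited FPKM was used to compare genes with each other.

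Symbols came from the Ensembl identifiers (35574 of 35709 rows matched). Values were tested with limma 3.58.1 in R 4.3.3 on log2(normalized count + 1), with a mean-variance trend, over the 20244 genes of at least 1 in at least 3 samples. All 12 samples entered one fit with a term per group (8 residual degrees of freedom). Adjusted p is Benjamini-Hochberg over all tested genes, threshold 0.05. A count of non-overlapping groups requires every sample of one group above every sample of the other. Fold changes of low genes are understated on this scale. The fit was also run on simulated data with independent normal noise for each gene and no library set apart. That run does not cover a library such as Alb-R3 CCl4 replicate 1. Alternatives were quantile normalization, pseudocounts of 0.1 and 5, no filter or a minimum in 6 samples, no trend, array weights, the FPKM column (pseudocount 0.1), the replicate number as a block, and leaving out each sample in turn.

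The members, the gene lists and the tests were chosen with earlier results of these data known. The genes named with values were, in each role, those past the threshold in the most comparisons or of largest change, and all angiocrine ligands. Genes of other lists were, in each comparison, the 2 of largest change past the threshold in each direction. Stab1, Stab2, Gata4 and other members named beyond that rule, and Hamp2 of another list, were chosen after their values were seen. Gene positions are GENCODE M21 (GRCm38).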

Additional observations from a re-analysis of the deposited data

How the results depend on the processing

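Of 29 member results past the threshold, 14 stayed past it in all 21 alternatives, 15 were lost in at least 1 and none reversed. For CCl4 in Alb-R3 the members that rose numbered 28, and 15 after quantile normalization, where 2198 and 1723 of all 20244 genes rose. For members lower in Alb-R3 after oil the count was 1, and 0 after quantile normalization, with no filter, with no trend and in FPKM, but 22 with array weights. With those weights 4 members rose in Alb-Cre after CCl4 and 2 had a called interaction, where the count was 0. Genes past the threshold then numbered 2703 for CCl4 in Alb-Cre, 663 for genotype after oil, 103 for genotype after CCl4 and 46 for the interaction, which had 6 with no trend, against 900, 42, 35 and 0. The cause was not tested.

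Leaving out each sample in turn gave 0 to 2 members higher for CCl4 in Alb-Cre, 20 to 29 in Alb-R3, and 0 to 12 lower after oil. All genes called ranged from 525 to 1431 (CCl4 in Alb-Cre), 2137 to 3782 (CCl4 in Alb-R3), 28 to 103 (genotype after oil), 20 to 38 (genotype after CCl4) and 0 to 3 (interaction). The highest of each range was without Alb-R3 CCl4 replicate 1, except in CCl4 for all genes in Alb-R3 (without Alb-Cre oil replicate 3). In FPKM the members' mean share was 0.0160% in Alb-Cre and 0.00812% in Alb-R3 with oil, and 0.0241% and 0.0247% with CCl4. On the FPKM scale the median log2 fold change of all genes was 0.22 and 0.23 in the CCl4 comparisons, against 0.02 and 0.00, and the calls were 1229 higher and 107 lower for Alb-Cre (against 700 and 200), and for Alb-R3 3120 and 590 (against 2198 and 1400).

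Replicate numbers did not pair the samples: over 18 pairs of libraries the correlation of deviations ran from -0.186 to 0.196, with 3 over 0.1. With the replicate number as a block 27 members rose with CCl4 in Alb-R3 and 0 were lower after oil. Of all 20244 genes, 1978 rose and 16 were lower in those comparisons. Low members such as Vwf and Wnt9b are limited by depth.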

Other observations

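The wider endothelial lists, chosen with earlier results known, had counts in the same direction as the members. Of 28 other endothelial genes 18 rose with CCl4 in Alb-R3 (median log2 fold change 1.42) in limma. Of all genes tested, 10.9% rose and 6.92% fell there, and 3.46% rose and 0.988% fell in Alb-Cre. The 18 were led by the ETS factor Fli1 (2.87 ± 0.55) and the haematopoietic and endothelial factor Tal1 (2.11 ± 0.59). In Alb-Cre 2 rose, Ets1 (0.86 ± 0.19) and Tspan7 (0.73 ± 0.19), and both also rose in Alb-R3 (1.65 ± 0.19 and 1.83 ± 0.19, in that order). Genes of pericentral endothelium rose in 3 of 6, among them the thrombin receptor thrombomodulin, Thbd (2.75 ± 0.40), and the member Rspo3, and genes of periportal endothelium in 4 of 6, among them Adgrg6 (3.08 ± 0.63) and the scavenger receptor Msr1 (3.05 ± 0.47), which macrophages also carry. Adgrg6 was listed at 0 in 2 of 3 Alb-R3 oil samples, so its fitted value depends on the pseudocount. No gene of these lists passed in either genotype comparison other than members. Without Alb-R3 CCl4 replicate 1 the counts that rose were unchanged. In that fit 1 of the 28 other endothelial genes passed as lower in Alb-R3 after oil, as did 63 of all 19818 genes.

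Among ligands, receptors and Notch genes of vessels, 29 of 33 were tested, and 9 rose and 1 fell with CCl4 in Alb-R3. Without Alb-R3 CCl4 replicate 1 these counts were 7 and 1. In Alb-Cre 1 rose (2 without that library), the chemokine scavenger Ackr3 (2.16 ± 0.56), which also rose in Alb-R3 (2.45 ± 0.56). Values of single genes in these lists are from the fit of all 12 samples. In that fit 10.9% of all genes rose and 6.92% fell with CCl4 in Alb-R3, and 3.46% rose and 0.988% fell in Alb-Cre. Without Alb-R3 CCl4 replicate 1, 1950 of all 19818 genes rose and 1231 fell in Alb-R3, and 977 rose and 454 fell in Alb-Cre. The hepatocyte-derived ligand Vegfa read 5319, 5241 and 6312 normalized counts in Alb-R3 oil and 3553, 2341 and 2896 in Alb-R3 CCl4, and fell by 0.96 ± 0.23 on the log2 scale (adjusted p = 0.013, limma), while the hepatocyte growth factor Hgf rose by 2.88 ± 0.62 and the chemokine receptor Cxcr4 by 2.47 ± 0.77. In the basement membrane list nidogen-1, Nid1, rose in Alb-Cre (2.66 ± 0.26) and in Alb-R3 (4.33 ± 0.26), and Tm4sf1 fell in both (-1.51 ± 0.30 and -1.81 ± 0.30). The collagen IV chain Col4a1 also rose in both, in Alb-Cre by 1.57 ± 0.25 and in Alb-R3 by 1.90 ± 0.25. The leukocyte adhesion molecule Vcam1 passed in Alb-R3 (3.44 ± 0.41). In this list 3 rose in Alb-Cre and 6 in Alb-R3, or 5 and 8 without Alb-R3 CCl4 replicate 1, and 1 fell in each. Of 22 hepatocyte receptors and targets of WNT and BMP, 4 fell in Alb-Cre and 9 fell and 1 rose in Alb-R3. Without Alb-R3 CCl4 replicate 1, 6 fell and 1 rose in Alb-Cre, and the counts were unchanged in Alb-R3. Slc1a2, a pericentral glutamate transporter, had the largest drop in each (-7.74 ± 0.39 and -7.11 ± 0.39). It was followed in Alb-Cre by Oat (-3.41 ± 0.38), which also fell in Alb-R3 (-3.33 ± 0.38). In Alb-R3 Slc1a2 was followed by Cyp2e1 (-4.43 ± 0.77), the enzyme that activates CCl4. The BMP target Id1, also counted in the list of vessel ligands and receptors, rose in Alb-R3 (1.63 ± 0.28). Hamp2, a hepcidin gene of the list, went the other way. It fell in Alb-Cre (-3.22 ± 0.77, adjusted p = 0.0309, limma) and in Alb-R3 (-3.28 ± 0.77, adjusted p = 0.0111, limma).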
